A study of Rattus norvegicus with 27 samples.

Results

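A set of 7 genes used as markers of upper-layer excitatory neurons, Cux1, Cux2, Rorb, Calb1, Lamp5, Rasgrf2 and Slc17a7, was followed over 27 libraries from the medial prefrontal cortex (mPFC) of rats. They were chosen by symbol and were matched to 7 of the 36865 rows of a raw count table. Reads were counted on 6 of the 7, and the row of Cux1 was listed at 0 in all 27 libraries. The question was how far the level of these genes differed between rats, and whether the genes were correlated with each other and with other genes of the same layers, since they are used as a readout of layer content.

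Each library was 1 adult male Wistar rat, and the 27 rats formed 1 group without controls. The labels give the same treatment, learned helplessness, for all 27 rats and name elevated plus-maze, light-dark, open field, acoustic startle and fear conditioning tests, after which the rats were sampled in a resting state. The study's own methods differ from these labels: for Wistar rats they describe repeats of the first 3 of these tests, and they assign startle and fear conditioning to another strain. The tissue was a bilateral, homogenised piece of a coronal section, 0.5 mm thick and from 2.0 to 1.5 mm relative to Bregma per the labels, that held infralimbic, prelimbic and anterior cingulate cortex (the study's own methods describe a thicker and more anterior section). Because whole tissue was sequenced, fewer cells of a type and less RNA per cell cannot be told apart in any value given here.

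Excitatory neurons of the neocortex are stacked in layers that are born in turn, and neurons of the upper layers, 2 to 4, mostly project within the cortex, whereas those of layers 5 and 6 send axons to the brainstem, striatum and thalamus. Rodent mPFC is agranular, that is, it lacks a clear layer 4. Cux1 and Cux2 encode transcription factors with Cut domains and a homeodomain that are used as landmarks of layers 2 to 4. Rorb encodes an orphan nuclear receptor that marks layer 4 in sensory cortex. Calb1 encodes calbindin, a calcium buffer of layer 2/3 pyramidal cells and of a part of the interneurons. Rasgrf2 encodes an exchange factor that activates Ras and Rac and is enriched in layer 2/3. Lamp5 encodes a membrane protein of the lysosome family found in upper-layer pyramidal cells and in neurogliaform interneurons. Slc17a7 encodes the vesicular glutamate transporter VGLUT1, which loads glutamate into synaptic vesicles in excitatory neurons of all cortical layers, so it marks cortical excitatory neurons and not the upper layers alone.

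In the RefSeq annotation of the rat assembly GRCr8, Cux1 (gene ID 116639) and Cux2 (288665) lie on chromosome 12, at chr12:25728393-26062497 and chr12:40168402-40368303. Rorb (309288) lies at chr1:225790216-225970973 and Slc17a7 (116638) at chr1:104786172-104798049. Calb1 (83839) lies at chr5:34172612-34199555, Lamp5 (362220) at chr3:143825197-143837699 and Rasgrf2 (114513) at chr2:24848699-25096773. The promoter table of RefSeq held 6 of the 7 members, without Calb1. The 250 bases ahead of an annotated transcript start are printed for Cux2, Rasgrf2 and Rorb, since Cux2 and Rorb were the members most strongly correlated with Rasgrf2. Letters in capitals mark CG dinucleotides.
Cux2, chr12:40179032-40179281, plus strand: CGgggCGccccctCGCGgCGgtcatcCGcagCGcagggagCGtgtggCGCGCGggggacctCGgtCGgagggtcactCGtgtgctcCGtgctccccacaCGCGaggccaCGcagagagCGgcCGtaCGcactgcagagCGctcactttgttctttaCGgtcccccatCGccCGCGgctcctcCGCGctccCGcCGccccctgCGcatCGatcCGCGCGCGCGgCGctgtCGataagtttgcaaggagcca
Rasgrf2, chr2:25096612-25096861, minus strand: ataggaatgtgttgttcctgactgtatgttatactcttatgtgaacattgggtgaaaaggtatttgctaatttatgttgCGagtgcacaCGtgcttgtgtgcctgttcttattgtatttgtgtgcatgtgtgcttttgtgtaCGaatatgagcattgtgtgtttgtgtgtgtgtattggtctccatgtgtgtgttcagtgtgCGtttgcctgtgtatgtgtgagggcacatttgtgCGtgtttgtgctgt
Rorb, chr1:225970974-225971223, minus strand: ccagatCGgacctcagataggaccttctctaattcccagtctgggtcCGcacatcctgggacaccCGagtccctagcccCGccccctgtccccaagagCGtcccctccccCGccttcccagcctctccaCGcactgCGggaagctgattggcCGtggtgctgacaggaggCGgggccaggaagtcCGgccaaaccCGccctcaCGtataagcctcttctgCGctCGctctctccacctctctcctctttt

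The promoters of these genes were unlike each other. The Cux2 window held 39 CG dinucleotides, more than 98.6% of the 33469 windows in the table (median 5), the Rorb window held 15 and the Rasgrf2 window held 5. Read on both strands, the Cux2 window held ATCGAT, a sequence that Cut-domain factors can bind and that 0.75% of all windows hold, and it held GGGCGG, which 30.5% of all windows hold. The Rorb window held GGGCGG and CCAAT, and the Rasgrf2 window held CCAAT, which 34% of all windows hold. TATAAA, in 12.9% of all windows, was in none of the 6 members' windows. The windows printed for Cux2 and Rasgrf2 overlap the span of their own gene, because transcripts of these genes have several starts.

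The libraries held 4907255 to 12771309 counted reads (median 8168801), and the number in the library name parted these totals. The 16 libraries numbered up to 31 held 4907255 to 8568317 reads and the 11 numbered from 32 held 9404220 to 12771309. What this number stands for is not given in the labels, so values are given within each of these library sets as well. Library 3 stood apart from the others. The summed level of 8 genes of mature oligodendrocytes, Mbp among them, was 65181 normalized counts there and 18634 to 44486 in the other 26 libraries, and results that rest on this library are also given without it. Ribosomal RNA, Rn18s, ranged from 853 to 19987 normalized counts, with the highest value in library 12, and it was not correlated with any member at an adjusted p under 0.05 (permutation test, adjusted over 96 relations; the lowest was 0.164 for Slc17a7).

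No read was assigned to Cux1 in 237499567 counted reads, which allows a share of up to 1.26e-06% (3 counts, counting error only). This describes the row of the table and not the tissue. The interneuron gene Sst, the upper-layer gene Pou3f2 and the layer 5 gene Tshz2 were also listed at 0 in all 27 libraries, as were 6059 of the 20624 rows annotated as protein-coding (29.4%). Cux1 therefore took no part in what follows, and no fold is given for it.

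The remaining members were counted in every library. The values that follow are normalized counts, that is, counts divided by the median-of-ratios size factor of the library. They are not divided by transcript length, so the level of 1 member cannot be set against that of another. Cux2 had 825 ± 156 normalized counts (SD, n = 27), with 381 in the lowest library, a median of 836 and 1162 in the highest. Its lowest value was in library 3, and the next lowest was 561. Within the library sets, Cux2 had a median of 798 in the libraries up to 31 (381 to 1162) and 860 in those from 32 (722 to 1101), so that the ranges of both sets overlapped.

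Rorb was counted at few reads, 18 to 69 in a library. It had 41.7 ± 12.3 normalized counts (SD, n = 27), with a lowest value of 26.3 in library 17, a median of 38.8 and a highest value of 72.3 in library 15. In the libraries up to 31 it ranged from 26.3 to 72.3 and in those from 32 from 29.1 to 47.9, inside the range of the first set. With so few reads a part of this spread was counting error, as quantified below.

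Rasgrf2 had the widest range of the 6 members in fold terms over all 27 libraries. It had 386 ± 100 normalized counts (SD, n = 27), with 147 in library 3, a median of 400 and 614 in library 12, a 4.18-fold range. Without library 3 the lowest value was 224, in library 54, and the range was then no wider than the 2.75-fold range of Rorb. The libraries up to 31 (147 to 614, median 427) enclosed those from 32 (224 to 432, median 392).

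Calb1 and Lamp5 had narrower ranges. Calb1 had 1639 ± 168 normalized counts (SD, n = 27), from 1215 in library 51 over a median of 1658 to 1902 in library 32, a 1.57-fold range. Lamp5 had 1486 ± 206 normalized counts (SD, n = 27), from 1168 in library 5 over a median of 1497 to 1915 in library 18, a 1.64-fold range. For both genes the library sets overlapped over most of their ranges, with 1435 to 1894 against 1215 to 1902 for Calb1 and 1168 to 1915 against 1181 to 1823 for Lamp5.

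Slc17a7, the marker of cortical excitatory neurons as a whole, had 11183 ± 1417 normalized counts (SD, n = 27). It ranged from 7479 in library 3 over a median of 11304 to 13608 in library 32, a 1.82-fold range, and the next lowest value after library 3 was 8395. Its median was 11078 in the libraries up to 31 and 11706 in those from 32.

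**Figure D1:**
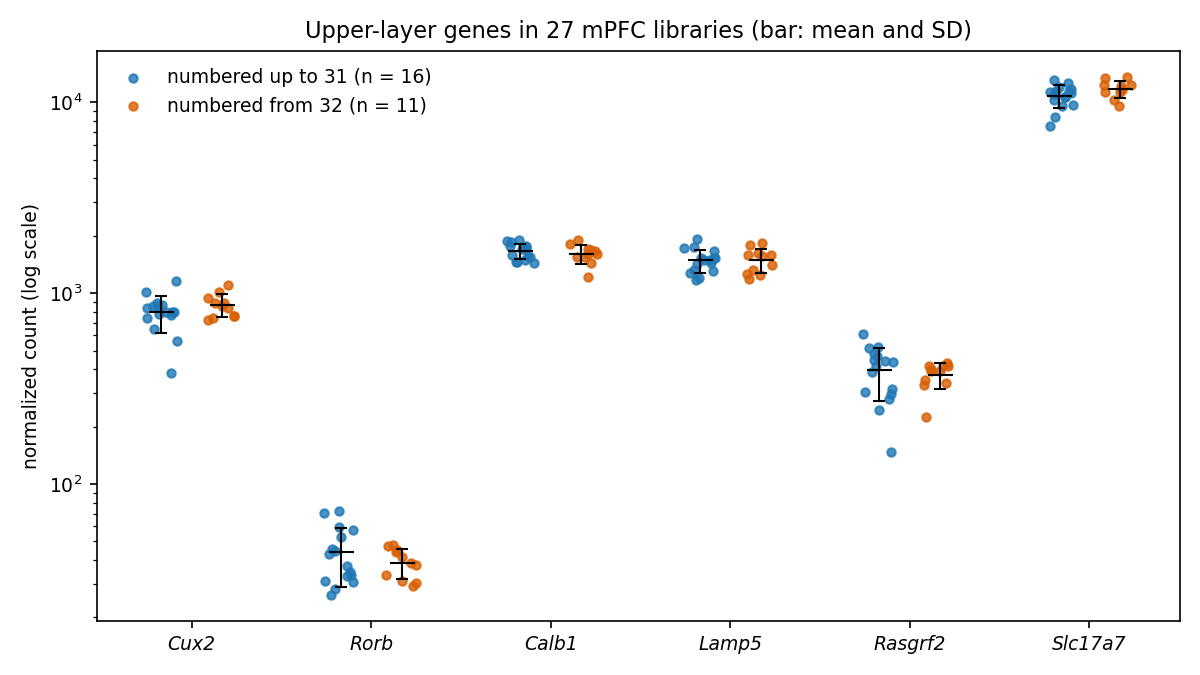
Normalized counts on a log axis of the 6 members with reads, 1 point per library, with the 16 libraries numbered up to 31 on the left and the 11 from 32 on the right of each gene; bars give the mean and SD. The points of both sets overlap for each gene, the lowest points of Cux2 (381), Rasgrf2 (147) and Slc17a7 (7479) are library 3, and heights of different genes are not comparable because counts are not divided by transcript length.

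The rank of a library was not shared by all members. Library 3 was the lowest of 27 for Cux2, Rasgrf2 and Slc17a7 and lay among the 5 lowest libraries for 5 of the 6 members, with Lamp5 (1439 normalized counts, rank 16 from the top) as the exception. Libraries 17 and 32 lay among the 5 highest for 4 members each, but library 17 was the lowest of all for Rorb. Library 18 had the highest Lamp5 value and was among the 5 lowest for Cux2, Rorb and Slc17a7.

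The spread between libraries exceeded counting error for each of the 6 members (chi-square test of the dispersion against that of Poisson counts, Benjamini-Hochberg adjusted p under 0.05 for 6 of 6). This was true of 89.8% of all 11730 genes that reached a mean count of 10, so it does not set the members apart. With 1 library per rat, differences between rats cannot be told apart from those of dissection or library preparation. Counting error made up 0.589% of the variance of Slc17a7, 3.26% of that of Lamp5, 3.93% of that of Cux2, 4.42% of that of Rasgrf2 and 5.48% of that of Calb1. For Rorb it made up 29.1%. Within the 11 libraries from 32, where 73.5% of all genes were called, 5 of the 6 members were called, and for Rorb, with counting error at 61.9% of the variance, the adjusted p was 0.118.

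The size of the spread differed between the members. On the log2 scale of normalized counts plus 1, the SD between libraries was 0.43 for Rasgrf2 and 0.31 for Cux2, against a median of 0.16 and 0.14 for the 500 genes nearest to each in mean count. Within the libraries up to 31, which include library 3, it was 0.52 for Rasgrf2 and 0.36 for Cux2. Within those from 32 it was 0.27 and 0.19. The values that follow are again over all 27 libraries. The SD was 0.20 for Lamp5, 0.19 for Slc17a7 and 0.15 for Calb1, where genes of like counts had a median of 0.13. Rorb had an SD of 0.39, close to the 0.34 of genes with like counts. Over all genes tested the median SD was 0.19, and 87.8% of them varied less than Rasgrf2, 84.3% less than Rorb, 75.4% less than Cux2 and 33.4% less than Calb1.

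The library sets were compared because depth and library number could shift the members. None of the 6 members differed between the sets (edgeR quasi-likelihood test, adjusted p under 0.05 for 0 of 6, against 18% of the 11716 genes tested). At an unadjusted p under 0.05 the count was also 0, and DESeq2's Wald test called 0 of 6. The differences, as log2 fold changes of the libraries from 32 against those up to 31 with their standard errors, were 0.13 ± 0.07 for Slc17a7 (adjusted p = 0.194 by edgeR), 0.12 ± 0.10 for Cux2 and -0.19 ± 0.15 for Rorb. They were -0.08 ± 0.14 for Rasgrf2, -0.05 ± 0.06 for Calb1 and 0.00 ± 0.07 for Lamp5. Of the 9 other upper-layer genes tested, 2 were called, beside 18% of all genes in either direction, so this does not set the list apart. They were Mdga1 (0.38, adjusted p = 0.0332 by edgeR), an adhesion protein, and Otof (0.28, adjusted p = 0.0222), the calcium sensor otoferlin. Both were higher in the libraries from 32, as were 8.85% of all genes. Of 10 genes of layers 5 and 6, 1 was called, Tbr1 (0.28, adjusted p = 0.0299 by edgeR), a transcription factor of layer 6. The median difference was 0.08 over the upper-layer list, 0.02 over the list of layers 5 and 6 and 0.00 over all genes.

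Each member was then correlated across the 27 libraries with every other gene, so that the relation of 1 member to another could be read against all 11729 relations of that member (Spearman's rho, two-sided permutation test with 100000 permutations, adjusted over the 11729 genes). The share of all genes called differed widely between members. It was 15.6% for Rasgrf2, 10.6% for Cux2, 3.70% for Slc17a7, 1.65% for Calb1 and 1.31% for Rorb. For Lamp5 no gene was called by rho, which is 0% of 11729, although 1044 genes had an unadjusted p under 0.05, and Pearson's r also called 0. Without library 3 the share was 8.29% for Rasgrf2, 2.94% for Cux2, 0.75% for Slc17a7 and 3.7% for Calb1. It was then 0.162% for Rorb and 0.0426% for Lamp5, so the order of the members rested in part on this library. A pair of members was called only where it passed from both sides.

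Of the 15 pairs of members, 1 was called, Cux2 with Rasgrf2, and 12 had a rho above 0. The median rho of the 15 pairs was 0.304, beside a median of -0.0049 over all pairs of the 11730 genes. Cux2 and Rasgrf2 had a rho of 0.612 (permutation p = 0.00082, adjusted p = 0.0206) and an r of 0.757 (permutation p = 8e-05, adjusted p = 0.00152). Without the 2 libraries farthest from the median of Cux2, 3 and 19, r was 0.470. Their rho was 0.703 within the 16 libraries up to 31 and 0.527 within the 11 from 32, where no gene was called with either member. The pair was not called within either set. The call was lost without library 3 (rho 0.566, adjusted p = 0.0669), without library 9 (rho 0.580, adjusted p = 0.0535) and without library 19 (rho 0.569, adjusted p = 0.0598), the libraries with the lowest Cux2 and low Rasgrf2, and it held in the other 24 of 27 such fits.

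Rorb followed Rasgrf2 at about the same strength. Their rho was 0.618 (permutation p = 0.00072), with an adjusted p of 0.0115 among the genes tested against Rasgrf2 and of 0.052 among those tested against Rorb, so the pair was not called. Their r was 0.591 (permutation p = 0.00112, adjusted p = 0.0777), and it was 0.529 without libraries 12 and 15, the farthest for Rorb. Their rho was 0.562 within the libraries up to 31 and 0.855 within those from 32. Without library 6, 17 or 52 the pair was called from both sides (rho 0.692, 0.720 and 0.638). Cux2 and Rorb had a rho of 0.369 (permutation p = 0.0591, adjusted p = 0.339) and an r of 0.350 (permutation p = 0.0725).

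Calb1 and Lamp5 were compared next. Their rho of 0.637 was the highest of the 15 pairs (permutation p = 0.00049), with an adjusted p of 0.0423 among the genes tested against Calb1 and of 0.146 among those tested against Lamp5, so this pair was not called either. Their r was 0.620 (permutation p = 0.00052, adjusted p = 0.126), and it was 0.622 without libraries 51 and 52, the farthest for Calb1, and 0.553 without libraries 5 and 18, the farthest for Lamp5. Their rho was 0.618 and 0.582 within the library sets and 0.599 to 0.681 when each library was left out in turn. Neither gene followed Cux2, with a rho of -0.02 for Calb1 and 0.05 for Lamp5, or Rorb, with a rho of -0.08 and 0.02. With Rasgrf2 their rho was 0.276 and 0.326, and the adjusted p of these 6 pairs lay between 0.440 and 0.990.

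Slc17a7 was related to the layer markers only loosely by rank. Its rho was 0.380 with Cux2, 0.327 with Lamp5, 0.304 with Rasgrf2, 0.296 with Calb1 and 0.00 with Rorb, and none of these pairs was called. By Pearson's r, Slc17a7 with Cux2 (0.654, permutation p = 0.00073, adjusted p = 0.0085) and with Rasgrf2 (0.577, permutation p = 0.00256, adjusted p = 0.0189) passed, where r called 24% of all genes with Slc17a7, 31.3% with Cux2 and 32.8% with Rasgrf2. These values rested on libraries 3 and 19: without them r was 0.200 with Cux2 and 0.162 with Rasgrf2. Within the libraries up to 31 the rho of Slc17a7 and Cux2 was 0.738, and within those from 32 it was -0.01.

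**Figure D2:**
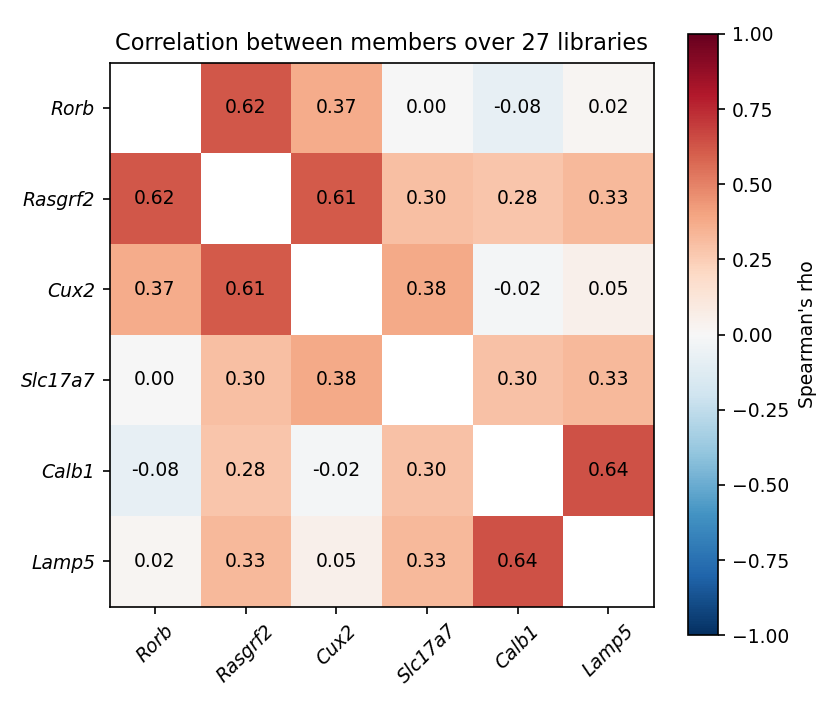
Spearman's rho of each pair of the 6 members over 27 libraries, written in each cell and coloured from -1 (blue) to 1 (red). Rasgrf2 with Rorb (0.62) and with Cux2 (0.61) and Calb1 with Lamp5 (0.64) stand out, while Rorb and Cux2 are near 0 with Calb1 and Lamp5.

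**Figure D3:**
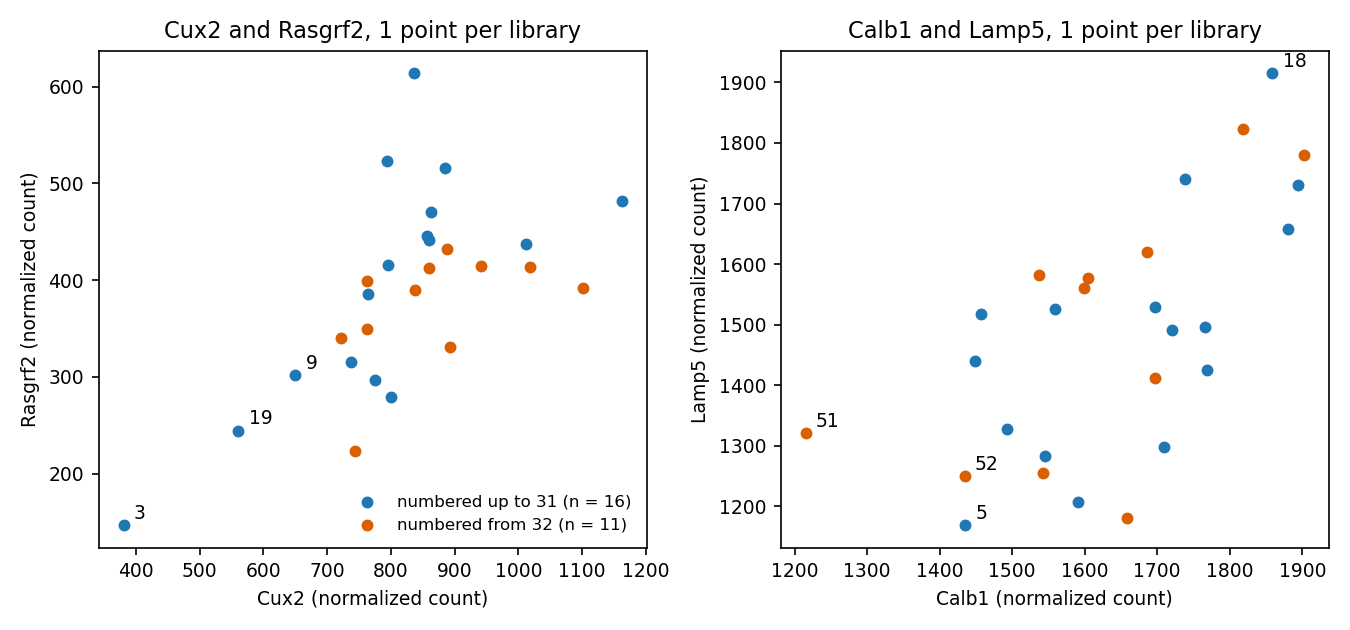
Normalized counts of Cux2 against Rasgrf2 (left) and of Calb1 against Lamp5 (right), 1 point per library, coloured by library set; libraries named in the text carry their number. Library 3 lies at the low end of both Cux2 (381) and Rasgrf2 (147), and library 19 is next for Cux2, whereas in the right panel the points spread along the whole range.

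Other genes of the upper layers were compared next, as a check of the label. Of 10 listed genes, 9 reached a mean count of 10. Cux2 was called with 3 of the 9, all positive, where 5.89% of all genes were called as positive. These were Wfs1, the endoplasmic reticulum protein wolframin (rho 0.767, permutation p = 2e-05, adjusted p = 0.0034; r 0.826, and 0.685 without libraries 3 and 19), Otof (rho 0.736, permutation p = 2e-05, adjusted p = 0.0034; r 0.815, and 0.712 without them) and Mdga1 (rho 0.540, adjusted p = 0.0443 by permutation). Wfs1 and Otof remained called without library 3, and Mdga1 did not (rho 0.488, adjusted p = 0.121). Wfs1 ranged from 1595 to 3633 normalized counts and Otof from 365 to 882. Cux2 was also called with Camk2a, a kinase of excitatory neurons of all layers (rho 0.665, permutation p = 0.00019, adjusted p = 0.00986; r 0.777), and this call remained without library 3 (adjusted p = 0.0384). In both library sets Cux2 followed Wfs1 (rho 0.832 and 0.818) and Otof (rho 0.671 and 0.827).

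Genes of the deep layers were compared in the same way. Of 10 tested genes of layers 5 and 6, 2 were called and both were negative, where 4.76% of all genes were called as negative: Pcp4, a calmodulin regulator (rho -0.608, permutation p = 0.00098, adjusted p = 0.0217; r -0.639), and Foxp2, a transcription factor of layer 6 (rho -0.537, permutation p = 0.00411, adjusted p = 0.0439; r -0.597). Without library 3 the rho of Pcp4 was -0.564 (adjusted p = 0.066) and that of Foxp2 was -0.531 (adjusted p = 0.0866), so both calls were lost. The sign was the same within both library sets, with -0.632 and -0.882 for Pcp4 and -0.544 and -0.618 for Foxp2. The median rho of Cux2 was 0.327 over the upper-layer list and -0.387 over the list of layers 5 and 6, beside 0.00 over all genes.

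Rasgrf2 was called with 4 of the 9 upper-layer genes, all positive. Among them were Unc5d, a netrin receptor (rho 0.667, adjusted p = 0.00495 by permutation), Wfs1 (rho 0.576, adjusted p = 0.0219) and the adhesion protein Nectin3 (rho 0.546, adjusted p = 0.0298). Unc5d remained called without library 3, and Wfs1 (rho 0.525, adjusted p = 0.0619) and Nectin3 (rho 0.491, adjusted p = 0.0874) did not. Rasgrf2 and Unc5d had a rho of 0.765 within the libraries up to 31 and of 0.564 within those from 32. A share of 15.6% of all genes was called with Rasgrf2, 10.2% positive, so that 4 of 9 is to be read against a broad background.

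The calls of Rasgrf2 were also not limited to upper-layer genes. Of the 92 genes tested over 13 lists, 11 were called, 10 positive and 1 negative. Among the positive ones were Gad2 (rho 0.693, adjusted p = 0.00377 by permutation), a GABA-synthesizing enzyme of interneurons, and Reln (rho 0.684, adjusted p = 0.00329), a secreted protein of interneurons. Camk2a was also called (rho 0.664, adjusted p = 0.00662), as was the astrocyte glutamate transporter Slc1a2 (rho 0.572, adjusted p = 0.0229). Pcp4 was negative (rho -0.553, adjusted p = 0.0293), and this call was lost without library 3 (rho -0.500, adjusted p = 0.0821). Within the libraries from 32 the rho of Rasgrf2 was 0.282 with Gad2 and 0.0909 with Reln, against 0.8 and 0.815 within those up to 31.

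Rorb was called with 1 of the 9 upper-layer genes, where 1.31% of all genes were called, namely Nectin3 (rho 0.628, permutation p = 0.0006, adjusted p = 0.0479), and with none of the 2 tested layer 4 genes Kcnh5 and Whrn. It was also called with Camk2a (rho 0.649, adjusted p = 0.0391 by permutation) and with Slc1a2 (rho 0.706, permutation p = 0.00013, adjusted p = 0.0363; r 0.740, and 0.629 without libraries 12 and 15). Without library 3 only Slc1a2 was called of these 3 (rho 0.710, adjusted p = 0.0391). Its call was lost without libraries 12 and 20 (rho 0.646, adjusted p = 0.105), and Rorb had no call with any gene when library 5, 12, 13, 31 or 42 was left out. The median rho of Rorb was 0.319 over the 7 astrocyte genes and 0.214 over the upper-layer list.

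Calb1 and Lamp5 were called with none of the 9 upper-layer genes, and their median rho over that list was 0.04 and 0.05. Calb1 was called with 3 of the 92 listed genes, where 1.65% of all genes were called: Vip, a neuropeptide of interneurons (rho 0.669, permutation p = 0.00026, adjusted p = 0.0339; r 0.752), Crym, a thyroid hormone binding protein of the deep-layer list (rho 0.627, adjusted p = 0.0447 by permutation), and, negatively, the striatal adenosine receptor Adora2a (rho -0.643, adjusted p = 0.0423). All 3 remained called without library 3, but with the library sets centred out Crym was not (adjusted p = 0.0523). Slc17a7 was called with Tbr1 (rho 0.706, permutation p = 9e-05, adjusted p = 0.0132; r 0.797, and 0.568 without libraries 3 and 19) and with Egr1, an immediate early gene (rho 0.585, adjusted p = 0.0478), of which Tbr1 remained called without library 3. The rho of Slc17a7 and Egr1 was 0.850 within the libraries up to 31 and -0.118 within those from 32, and the call was lost with the library sets centred out (adjusted p = 0.103). Over all 6 members and 92 listed genes, 25 relations were called, 21 positive and 4 negative, 15 of the 25 remained called without library 3, and 18 with the library sets centred out. These 25 were 4.53% of 552 relations, beside 5.48% of the relations of the 6 members with all genes, so the share among listed genes was near the background.

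**Figure D4:**
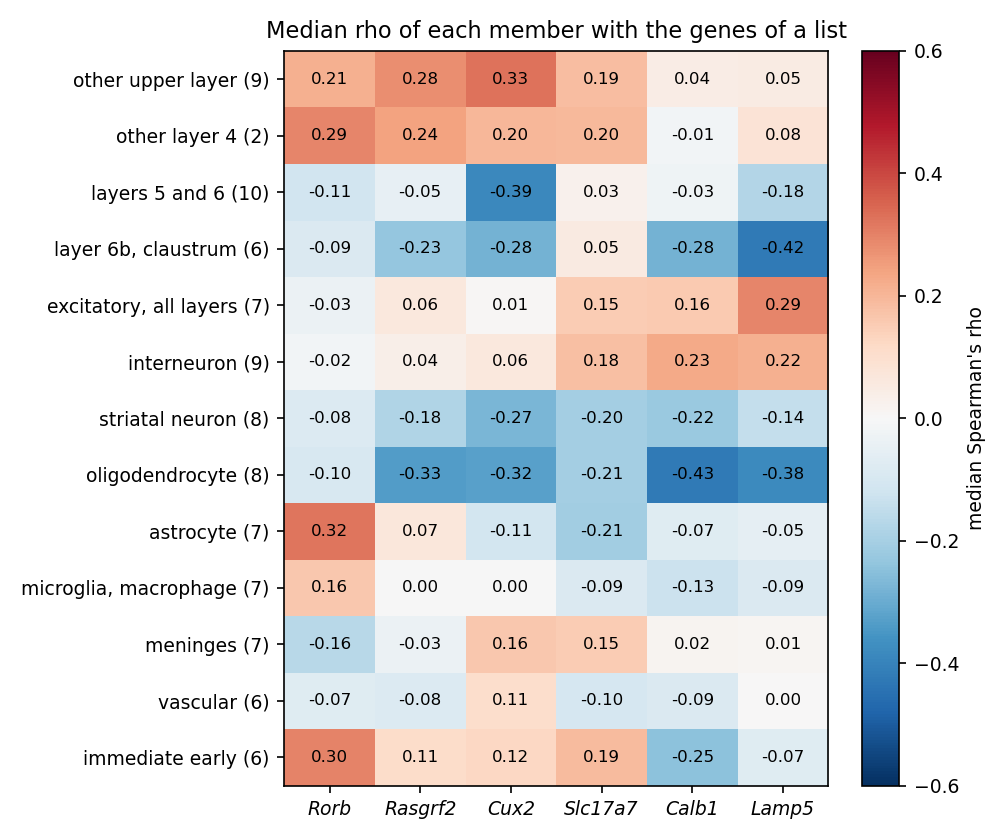
Median Spearman's rho of each member (columns) with the genes of 13 lists of layer, cell type and activity markers (rows, number of genes tested in brackets) over 27 libraries. Cux2 is highest with the other upper-layer genes (0.33) and lowest with genes of layers 5 and 6 (-0.39), Calb1 is lowest with oligodendrocyte genes (-0.43) and Lamp5 with genes of layer 6b and claustrum (-0.42).

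The summed level of each list was also compared (96 relations in all, 6 members against 13 lists, Rn18s, the total count and the library number, adjusted together). The summed level of the upper-layer list ranged from 4132 normalized counts in library 3 to 6608 in library 43. Wfs1, which was called with Cux2 above, makes up the largest share, so the sum is not a separate check of that relation. The sum followed Cux2 with a rho of 0.756 (permutation p = 2e-05, adjusted p = 0.00192) and an r of 0.847, or 0.737 without the 2 libraries farthest from the median of the sum. The relation was present within both library sets (rho 0.844 and 0.764). With Rasgrf2 its rho was 0.561 (permutation p = 0.00288, adjusted p = 0.0691) and its r 0.677 (adjusted p = 0.0064 by permutation), or 0.432 without the 2 libraries farthest from the median of the sum. With Slc17a7 its rho was 0.425 (permutation p = 0.0282, adjusted p = 0.196) and its r 0.617 (adjusted p = 0.0157), or 0.299 without them. Within the libraries up to 31 the rho of the sum was 0.8 with Rasgrf2 and 0.656 with Slc17a7, whereas within the libraries from 32 it was 0.136 and 0.0273, and the difference between the sets was not tested. The rho of the sum was 0.305 with Rorb, 0.121 with Calb1 and 0.117 with Lamp5. The summed level of layers 5 and 6 (8688 to 11927 normalized counts) had a rho of -0.568 with Cux2 (permutation p = 0.00249, adjusted p = 0.0691), with -0.347 and -0.818 within the library sets.

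Genes of oligodendrocytes, the myelinating cells of white matter, varied with part of these values. The oligodendrocyte list, 8 of 8 genes counted and none at 0, had a rho of -0.368 with Cux2 (permutation p = 0.0602, adjusted p = 0.287) and an r of -0.573 (permutation p = 0.00267, adjusted p = 0.032), or -0.431 without the 2 libraries farthest from the median of the sum. Within the 11 libraries from 32, where its sum ranged from 18691 to 37228 normalized counts, its rho was -0.873 with Rasgrf2, -0.818 with Rorb and -0.691 with Cux2, whereas within the 16 libraries up to 31, with 18634 to 65181, it was -0.185, 0.0941 and -0.365. Other lists gave values of this size within the same 11 libraries: the rho of the summed vascular genes was 0.636 with Rasgrf2, 0.809 with Rorb and 0.8 with Cux2, against -0.435, -0.415 and -0.359 within the libraries up to 31. The summed level of layers 5 and 6 had a rho of -0.845 with Rasgrf2 and -0.700 with Rorb within the 11 libraries, against 0.150 and 0.135 within the 16. Over all 27 libraries, the rho of the oligodendrocyte list with Calb1 was -0.398, with Lamp5 -0.366 and with Slc17a7 -0.186, with adjusted p between 0.221 and 0.746. The part of oligodendrocyte content in the relations between members was not tested. For Lamp5, the list of layer 6b and claustrum genes (594.9 to 1211 normalized counts) gave a rho of -0.518 (permutation p = 0.00665, adjusted p = 0.128) and an r of -0.579 (adjusted p = 0.0232). The list of excitatory genes of all layers gave a rho of 0.599 (permutation p = 0.00127, adjusted p = 0.061) and an r of 0.584 (adjusted p = 0.0232), so both lists passed by r and not by rho. Within the libraries up to 31 and from 32, the rho with Lamp5 was -0.6 and -0.564 for the layer 6b and claustrum list and 0.603 and 0.727 for the excitatory list.

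The genes most like each member, up to 3 each, were taken by the highest rho over the 27 libraries among genes with a symbol, as a description without a test. Cux2 was most like Iqsec2, an exchange factor of the postsynaptic density (rho 0.846), the kinase Src (0.842) and the phosphatase Dusp8 (0.841), and these values were 0.691 to 0.845 within the library sets. Rasgrf2 was most like Btbd3 (rho 0.910), which orients dendrites, the potassium channel gene Kcnj2 (0.900) and the microtubule-binding Nav3 (0.892). Within the library sets up to 31 and from 32, these were 0.944 and 0.755 for Btbd3, 0.938 and 0.773 for Kcnj2, and 0.918 and 0.436 for Nav3. Rorb was most like Egfr (rho 0.806), the growth factor receptor, the endocytic adaptor Ston2 (0.768) and Slc4a4 (0.766), a bicarbonate transporter of astrocytes. Within the same sets they were 0.856 and 0.691 for Egfr, 0.797 and 0.536 for Ston2, and 0.824 and 0.473 for Slc4a4. Egfr and Kcnj2 had means of 23.3 and 22.7 normalized counts, near the lower limit of what was tested.

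Calb1 and Lamp5 shared their most similar gene, Nrn1, which encodes neuritin, an activity-regulated protein of neurites. Nrn1 had 1574 ± 207 normalized counts (SD, n = 27), from 1228 to 2059, and a rho of 0.823 with Calb1 and of 0.816 with Lamp5. Within the library sets these were 0.756 and 0.882 for Calb1 and 0.824 and 0.855 for Lamp5. Next came, for Calb1, Gucy1b1 (rho 0.814), a subunit of soluble guanylate cyclase, and Dipk2a (0.813), and, for Lamp5, Rgs4 (0.772), a regulator of G protein signalling. Slc17a7 was most like Lingo1 (rho 0.869), a receptor partner in axons, Brinp2 (0.814) and Ephb6 (0.814), an ephrin receptor. No gene was among the 3 nearest of both Cux2 and Rasgrf2, but so few genes out of 11729 seldom overlap, so this says nothing about the pair.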

How the data were processed

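Per the labels, Trimmomatic, STAR and HTSeq were used upstream (versions, genome build and strandedness are not given in the sources used here). The authors deposited raw counts of reads per gene, without normalization, for 27 libraries, and all columns were used. Genes with several loci (436 rows), close paralogs and overlapping genes may share reads. Symbols came from the RefSeq list of GRCr8 (27825 of 36865 rows, with 99.5% of reads).

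Counts were divided by size factors (DESeq2 1.42.0), and genes that reached a mean count of 10 were tested, on log2(normalized count + 1) for r. Library sets were compared with edgeR 4.0.16 (filterByExpr, TMM), and p-values were adjusted by Benjamini-Hochberg over all genes tested. No library pair of 351 agreed within sampling noise. In simulated counts with 200 changed genes the tests recovered 190 (spread), 182 (library sets) and 197 (correlation), with 12, 7 and 4 false calls. The members and gene lists were chosen with earlier results of these data known. Genes named are the members, examples of each list and the 3 genes most like each member, of which some are not reported here; Sst, Pou3f2 and Tshz2 were named after their values were seen. Floors cover counting error only, since reads without molecular identifiers are not independent molecules. Alternatives were TMM or total-count scaling, a pseudocount of 0.1, no filter, DESeq2's Wald test, centring on library sets and leaving out libraries. Anxiety scores were not used here.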

Additional observations from a re-analysis of the deposited data

How the results depend on the processing

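No paired analysis was possible because the 27 libraries form 1 group. The mean level of each of the 6 members moved by less than 1 SD with TMM or total-count scaling, the spread test called 6 of 6 members with TMM and without the filter on low counts (5 of 6 within the libraries from 32), and the library sets differed for 0 of 6 members with each alternative run. Over all genes the library sets differed for 1808 to 2471 genes when each library was left out in turn. The single called pair, Cux2 with Rasgrf2, was called with TMM, total counts, a pseudocount of 0.1, no filter on low counts, the library sets centred out, and without libraries 12 and 20. It was not called within 1 library set alone, but within the 11 libraries from 32 no gene was called with either member. Leaving out each library in turn, chosen for this test after seeing the data, gave 0 to 2 called pairs: 0 without library 3, 9 or 19 (adjusted p between 0.0535 and 0.0669) and 2 without library 6, 17 or 52, where Rorb with Rasgrf2 was added. The median rho of the 15 pairs was 0.205 with total counts, 0.339 with the library sets centred out and 0.229 to 0.346 with 1 library left out.

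Apart from values within 1 library set, the signs that turned among the differences between library sets and the member pairs were of values close to 0. The difference between library sets turned for Rasgrf2 without libraries 12 and 20 (0.0076 on the log2 scale) and for Lamp5 with 1 library left out (-0.0406 to 0.0399). With the library sets centred out the rho of Cux2 and Calb1 was 0.0161 and that of Rorb and Slc17a7 was 0.0306, and without libraries 12 and 20 the rho of Rorb and Lamp5 was -0.0192. With 1 library left out the rho ranged from -0.110 to 0.0612 for Cux2 and Calb1, from -0.0345 to 0.125 for Cux2 and Lamp5, from -0.163 to 0.0209 for Rorb and Calb1, from -0.0448 to 0.137 for Rorb and Lamp5 and from -0.0940 to 0.0824 for Rorb and Slc17a7.

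The number of genes called with a member was less stable. With Rorb it fell from 154 to 3 without libraries 12 and 20, the libraries singled out for their ribosomal RNA, was 87 with the sets centred out, and ranged from 0 (without library 5, 12, 13, 31 or 42) to 474 (without library 17). With Calb1 it was 193, but 25 with total counts and 122 without the filter on low counts, and 37 (without library 51) to 585 (without library 32). With Slc17a7 it was 434, but 221 with the sets centred out and 253 without libraries 12 and 20, and 88 (without library 3) to 1068 (without library 51). With Lamp5 it was 0, 15 with the sets centred out, and up to 35 (without library 43). With Rasgrf2 it was 1825, but 944 without libraries 12 and 20, and 972 (without library 3) to 2178 (without library 26). With Cux2 it was 1249, and 345 (without library 3) to 1378 (without library 47). It also fell to 420 without library 19, 443 without library 9 and 606 without library 18. The causes were not tested. Rorb had 18 to 69 reads per library, the fewest of the 6 members.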
